A study of Rattus norvegicus with 6 samples.

Results

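The sodium pump (Na,K-ATPase) is the membrane enzyme that spends ATP to move sodium out of the cell and potassium in. The genes described here are those of its beta subunits, Atp1b1, Atp1b2 and Atp1b3, and of its small regulators of the FXYD family, Fxyd1, Fxyd2, Fxyd3, Fxyd4 and Fxyd5. They were chosen by exact name in the table of normalized counts. Of the 8 listed genes, 6 had a row of that name among 27321 features, and all 6 passed the filter on low values. Atp1b1 was present only in the feature Nme7+Atp1b1, which merges overlapping genes, so its reads cannot be assigned to either gene. No row was named Fxyd2. The feature ATNG_RAT carries the UniProt entry name of the pump's gamma subunit, which is the protein of Fxyd2, but the table does not pair these names. Both features are described under their own names and are not counted among the 6.

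RNA was taken from the IM tip, the terminal part of the rat kidney inner medulla. Male Sprague-Dawley rats, 3 months old and about 150 g in weight, received through the tail vein either streptozotocin (STZ) at 62.5 mg/kg or the citrate vehicle alone. STZ is a toxin of the insulin-producing beta cells of the pancreas, and rats treated with it serve as a model of type 1 diabetes. Tissue was taken 15 days after the injection from both the STZ group (3 libraries) and the vehicle group (3 libraries, called control). The groups share strain, sex and age and carry no transgene. The sources give a replicate number for each library but do not state outright that each came from a single rat, so the p-values measure the spread between these libraries, which may be partly technical. The RNA was that of bulk tissue, in which fewer cells of a type and less RNA per cell cannot be told apart.

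Each pump is built from a catalytic alpha subunit and a beta subunit, a glycoprotein that the alpha subunit needs to fold and to reach the plasma membrane. An FXYD protein, which crosses the membrane a single time, can join the pair and change its affinity for sodium or potassium or its turnover. In collecting duct cells the pump sits in the basolateral membrane, where it removes the sodium that enters from the lumen and helps the cell keep its volume and ions in the hyperosmotic inner medulla.

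The libraries held between 3412311 and 5575171 reads on features, recovered from the deposited values, and 1 read was worth between 0.763 and 1.11 normalized counts. By the column headers, all 3 control libraries were run on sequencing lane 3, and the STZ ones on lanes 6, 7 and 8. Condition and lane therefore cannot be told apart for any result. Values of the single libraries are given below in the order of their replicate numbers. Markers of the collecting duct's principal cells differed widely in level. The water channel Aqp2 was at 2881 ± 752 (SD, n = 3) normalized counts in control and 5246 ± 1907 (SD, n = 3) in STZ tissue. Its groups did not overlap, and it did not pass (adjusted p = 0.180 by limma). The summed level of the 7 principal cell markers found, out of 8 listed, was between 11011 and 18937 in control libraries and between 18559 and 35612 in STZ libraries, with overlap. The list's most abundant gene, the water channel Aqp3, went from 8100 ± 2920 to 15250 ± 6307 (SD, n = 3 each), with overlap (adjusted p = 0.263). Of the 7, the log2 fold change was positive for 6 and negative for 1, and none passed in limma. The negative one was the enzyme gene Hsd11b2, at 41.6 ± 15.0 in control and 22.1 ± 0.70 in STZ tissue (SD, n = 3 each), without overlap. Summed markers of several other cell types separated the groups. The summed level of the 7 intercalated cell markers was between 1348 and 2854 in control libraries and between 541 and 628 in STZ libraries, and Slc4a1, Atp6v1b1, Atp6v0d2, Atp6v1g3 and Rhcg fell. The sum of 5 of 6 endothelial markers was between 6034 and 7767 in control and between 3221 and 3457 in STZ libraries, but it was carried by Emcn, which fell from 5510 to 2095. Of the same markers Vwf rose (47.7 to 191), Tie1 was above control in every STZ library, Cdh5 was below and Pecam1 had a log2 fold change of 0.04. The sum of 5 of 7 proximal tubule markers was 255 to 461 in control and 92.0 to 155 in STZ libraries. Kap alone passed there (217 to 47.0), and of 4 tested 3 had a negative and 1 a positive log2 fold change. The sum of 5 of 8 urothelial markers was higher in STZ libraries (85.4 to 132 in control, 440.1 to 517 in STZ), and the log2 fold change was positive for all 5. The sum over 5 of 8 markers of smooth muscle and pericytes was also higher (493 to 548 in control, 839 to 935 in STZ), which was carried by Tagln (222 to 558). Of those 5, the log2 fold change was positive for 2 and negative for 3, with a median of -0.16. Sums of the other marker lists overlapped, with Cldn10 leading for the thick ascending limb, Dcn for fibroblasts, where Pdgfra rose, and Cd74 for leukocytes, and no marker found was at 0 in all 6 libraries. The part of these cell types in the results was not tested.

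Of the 6 genes found, 1 fell and none rose at an adjusted p under 0.05 in limma, and the counts were the same in edgeR and in DESeq2. DESeq2, however, gave Fxyd1 and Fxyd3 no adjusted p. Over all 13486 features tested, 2.1% passed in either direction, 0.927% lower in STZ tissue and 1.17% higher (edgeR called 2.13% and DESeq2 4.43%). At an unadjusted p under 0.05 in limma there were 1988 of all 13486 features tested and 3 of the 6 genes, namely Fxyd5, Atp1b3 and Fxyd3. These were also the genes whose groups did not overlap, with STZ above control for Atp1b3 and Fxyd3 and below for Fxyd5, against 10.1% of all features above, 10.3% below and 20.3% in all. The log2 fold change of STZ over control, on the scale of log2(normalized count + 1), was positive for 5 genes and negative for 1. Its median over the 6 was 0.39, beside 0.01 over all features tested. A two-sided exact permutation test of 3 against 3 libraries cannot give a p under 0.1.

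**Figure D1:**
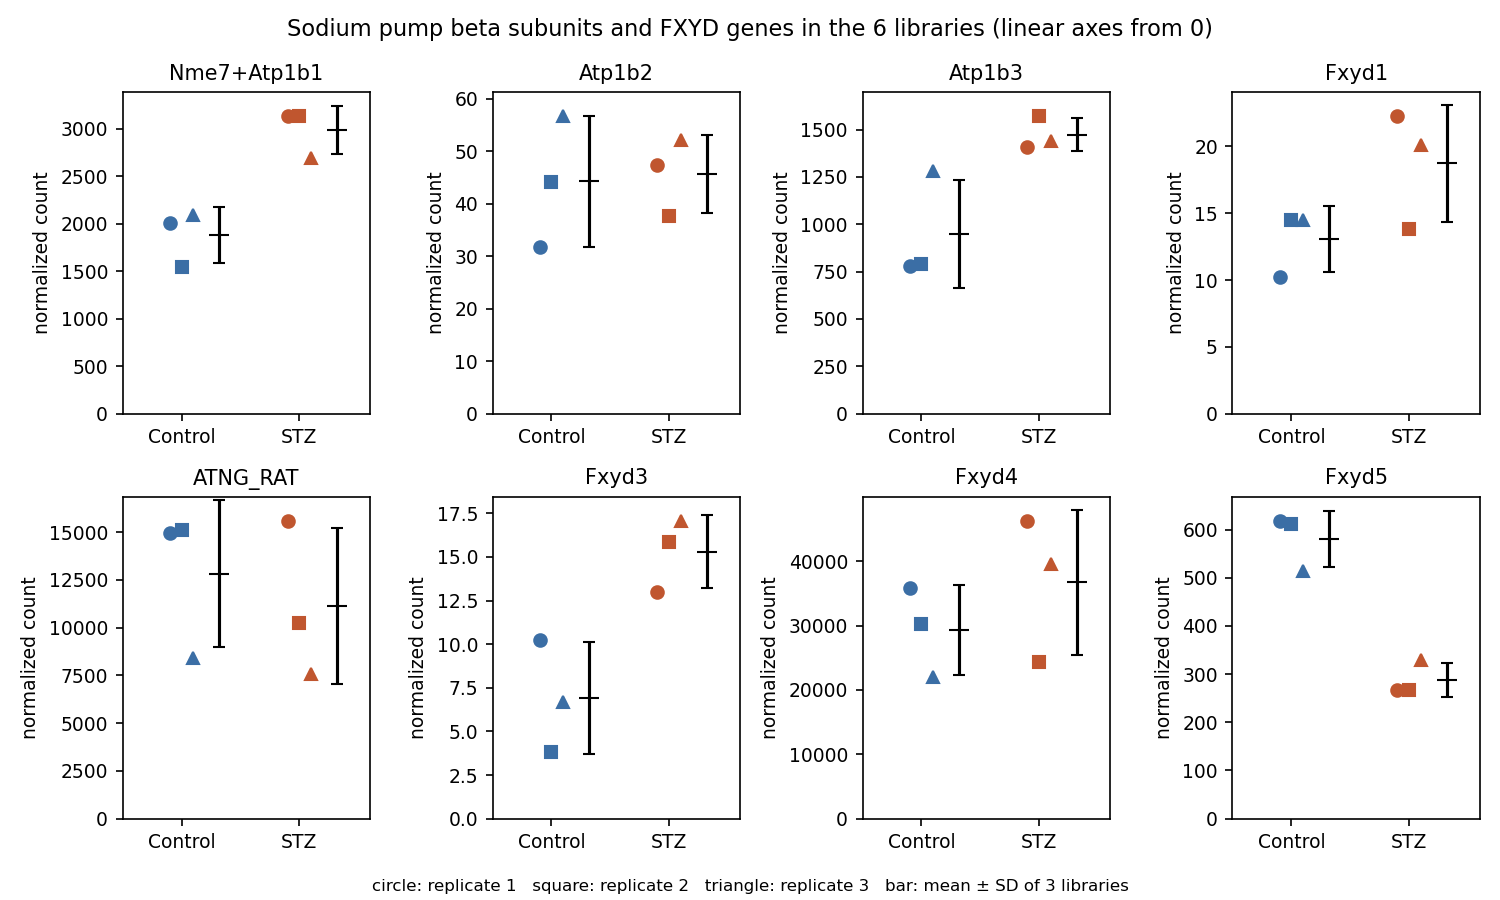
Normalized counts (linear axes from 0) of the 6 genes and the 2 features Nme7+Atp1b1 and ATNG_RAT in each control (blue) and STZ (orange) library; symbols mark replicates 1 to 3 and bars the mean ± SD of 3 libraries. STZ libraries lie wholly above control for Nme7+Atp1b1, Atp1b3 and Fxyd3 and wholly below for Fxyd5, and the groups overlap in the other panels.

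Fxyd5, also called dysadherin, is an FXYD protein that raises the activity of the pump and also affects adhesion between cells. It is encoded on chromosome 1 of rn4, from 86076278 to 86085681. The control libraries held 618, 611 and 513 normalized counts of Fxyd5 and the STZ libraries 266, 268 and 329. All STZ libraries were below all control libraries, and the SD within each group was 10.1% of the mean in control and 12.4% in STZ tissue. The mean fell from 581 ± 58.7 (SD, n = 3) to 288 ± 35.8 (SD, n = 3), so that the control level was 2.02 times the STZ level. Its log2 fold change was -1.01 (SE 0.18, 95% interval -1.41 to -0.61), with an adjusted p of 0.0197 by limma. Of all features tested, 0.875% had a lower p. The permutation test gave p = 0.1, its smallest value.

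Run on the recovered reads, the count models gave Fxyd5 a log2 fold change of -1.004 with an adjusted p of 0.0208 in edgeR and of -1.01 with an adjusted p of 5.04e-05 in DESeq2. The call was lost in limma without the intensity trend (adjusted p = 0.147). It was also lost when a library was left out: without control replicate 1 the adjusted p was 0.0537, without control replicate 2 it was 0.102, without STZ replicate 1 it was 0.0735 and without STZ replicate 2 it was 0.100. It held without control replicate 3 and without STZ replicate 3, with adjusted p between 0.0166 and 0.0354. Across these removals the log2 fold change stayed between -1.11 and -0.96. The intercalated cell, proximal tubule and endothelial marker sums given above were also lower in STZ libraries. Of 6 intercalated markers tested, 5 fell, beside 0.927% of all features tested. Of 4 proximal tubule markers tested, 1 fell. Of 4 thick ascending limb markers tested, 2 fell, and the sums of that list overlapped. The endothelial markers were mixed in direction. The intercalated cell marker with the highest level, Atp6v1g3, a subunit of the proton pump, went from 1113 ± 627 to 276 ± 53.2 normalized counts (log2 fold change -1.89, SE 0.33, adjusted p = 0.0160). The part of these cell types in the fall of Fxyd5 was not tested.

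**Figure D2:**
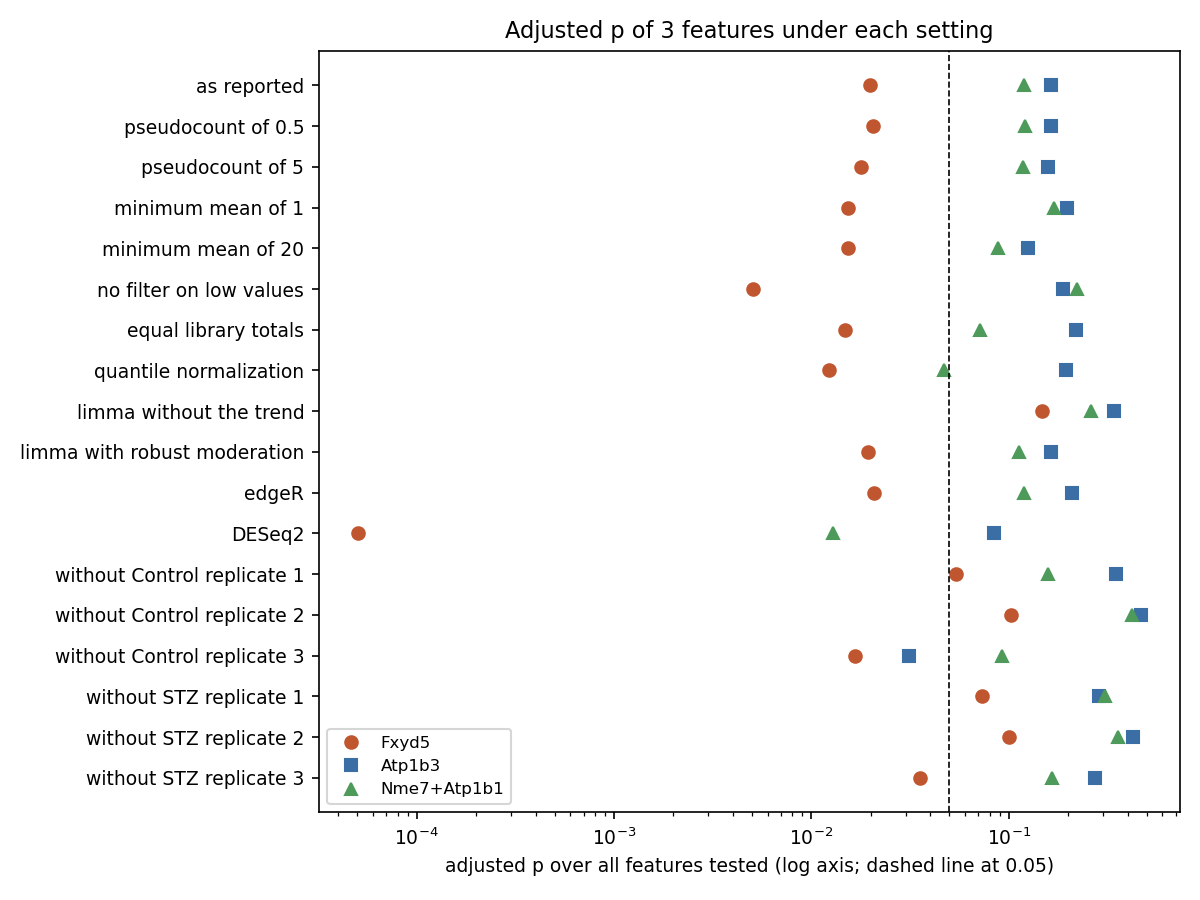
Adjusted p (log axis, dashed line at 0.05) of Fxyd5 (circles), Atp1b3 (squares) and Nme7+Atp1b1 (triangles) as reported and under alternative settings, including each library left out. Fxyd5 lies left of the line except in limma without the trend (0.147) and without control replicate 1 or 2 or STZ replicate 1 or 2, and Atp1b3 crosses it only without control replicate 3 (0.0311).

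Fxyd5 lies in a row of FXYD genes on chromosome 1, and it was the only one of them to pass the test. Fxyd7 begins 341 bases beyond its end, Fxyd1 9868 bases and Fxyd3 28024 bases. Fxyd7, whose protein is found mainly in brain, had at most 1 read in any library. At this depth it could not be compared between the groups.

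Fxyd1 encodes phospholemman, the FXYD protein of heart and skeletal muscle and a major substrate of protein kinases A and C. It lies on chromosome 1 of rn4, from 86095550 to 86098079. Its normalized counts were 10.3, 14.5 and 14.5 in the control libraries and 22.3, 13.8 and 20.1 in the STZ libraries. The groups overlapped through STZ replicate 2. The mean was 13.1 ± 2.44 (SD, n = 3) in control and 18.7 ± 4.38 (SD, n = 3) in STZ tissue, on 10 to 24 reads per library. The log2 fold change was 0.48 (SE 0.36, 95% interval -0.32 to 1.28, adjusted p = 0.632).

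Fxyd3, known as Mat-8, is an FXYD protein of epithelia such as stomach and uterus and of several tumours. It lies from 86113706 to 86117083 on chromosome 1 of rn4. The control libraries held 10.3, 3.81 and 6.68 normalized counts and the STZ libraries 13.0, 15.8 and 17.1. Every STZ library was above the control libraries. The gap rested on few reads, 5 to 10 per control library and 14 to 17 per STZ library. The mean was 6.91 ± 3.23 (SD, n = 3) against 15.3 ± 2.08 (SD, n = 3), and the log2 fold change of 1.12 (SE 0.47, 95% interval 0.08 to 2.16) did not pass (adjusted p = 0.293). The summed urothelial markers were also above control in every STZ library, and 2 of the 5 tested rose, Upk1b and the uroplakin Upk3a (35.3 ± 12.8 to 344 ± 19.7). Over all features tested, 1.17% rose. The smooth muscle and pericyte sum was above control in every STZ library too, with 2 of its 5 markers positive and 3 negative in log2 fold change. The part of these cell types in the values of Fxyd3 was not tested.

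Fxyd4 encodes the corticosteroid hormone-induced factor (CHIF), the collecting duct's own FXYD protein, which raises the pump's affinity for sodium. It was the most abundant of the genes described, with 0.549% to 0.996% of all reads on features in each library, and lies on chromosome 4 of rn4, from 154233711 to 154237571. Normalized counts were 35824, 30272 and 21951 in the control libraries and 46287, 24308 and 39642 in the STZ libraries. The groups overlapped, since STZ replicate 2 was below control replicates 1 and 2. The means were 29349 ± 6982 (SD, n = 3) and 36746 ± 11272 (SD, n = 3). The 95% interval of the log2 fold change, 0.30 (SE 0.33, adjusted p = 0.787), was -0.43 to 1.04, which leaves room for a change in either direction. The log2 fold change was 0.11 without control replicate 3 or without STZ replicate 1, and 0.57 without STZ replicate 2. The number of reads did not limit this comparison, since every library had at least 19721 reads of Fxyd4.

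The feature ATNG_RAT lies on chromosome 8 of rn4 from 48379074 to 48386259, 32039 bases from Fxyd6. The gamma subunit is the FXYD protein of most nephron segments, where it lowers the pump's affinity for sodium. It took between 0.190% and 0.356% of all reads on features. The control libraries held 14955, 15121 and 8412 normalized counts and the STZ libraries 15588, 10236 and 7563. Replicate 3 was the lowest in each group, and the groups overlapped. The means were 12829 ± 3827 (SD, n = 3) and 11129 ± 4086 (SD, n = 3), with a log2 fold change of -0.22 (SE 0.33, 95% interval -0.94 to 0.50, adjusted p = 0.863). Its sign turned to 0.03 without STZ replicate 3.

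Fxyd6, the family gene next to ATNG_RAT and not on the list, was at 53.6 ± 16.0 (SD, n = 3) normalized counts in control and at 36.9 ± 18.6 (SD, n = 3) in STZ tissue. The groups overlapped (log2 fold change -0.61, SE 0.37, adjusted p = 0.510).

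Atp1b3 encodes a widely expressed beta subunit and lies on chromosome 8 of rn4, from 101405876 to 101437757. Normalized counts of 782, 789 and 1280.0 were found in the control libraries and of 1409, 1573 and 1441 in the STZ libraries. Every STZ library was above every control library, but control replicate 3 stood well above the other two and near the STZ level. The mean was 951 ± 285 (SD, n = 3) in control and 1474 ± 87.0 (SD, n = 3) in STZ tissue, a ratio of 1.55. The log2 fold change was 0.67 (SE 0.22, 95% interval 0.19 to 1.15), with an unadjusted p of 0.0110 and an adjusted p of 0.163 by limma. It did not pass in edgeR (adjusted p = 0.210) or DESeq2 (adjusted p = 0.0844). Without control replicate 3 the log2 fold change was 0.90 and the adjusted p was 0.0311, so this library decides the call. With other libraries left out it was 0.55 or more, without passing.

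Nme7+Atp1b1 joins Atp1b1, the main beta subunit of kidney tubules, and Nme7, a nucleoside diphosphate kinase family gene, from 80103564 to 80234899 on chromosome 13 of rn4. The feature held 2010.4, 1548 and 2088 normalized counts in the control libraries and 3136, 3136 and 2689 in the STZ libraries. The groups did not overlap. The mean was 1882 ± 292 (SD, n = 3) in control and 2987 ± 258 (SD, n = 3) in STZ tissue, a ratio of 1.59. The log2 fold change was 0.67 (SE 0.20, 95% interval 0.24 to 1.11), with an adjusted p of 0.12 by both limma and edgeR. DESeq2 placed it past the threshold (0.66, adjusted p = 0.0129), as did limma after quantile normalization (0.70, adjusted p = 0.0468). Which of the merged genes gave the difference cannot be told from this feature.

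Atp1b2 encodes the beta subunit of glia and neurons and lies on chromosome 10 of rn4, from 56418325 to 56423893. It was low, at 31.8, 44.2 and 56.8 normalized counts in the control libraries and 47.4, 37.6 and 52.2 in the STZ libraries. The STZ values all fell within the control range. The means were 44.3 ± 12.5 (SD, n = 3) and 45.7 ± 7.44 (SD, n = 3), with a log2 fold change of 0.07 (SE 0.28, 95% interval -0.54 to 0.68, adjusted p = 0.959). The sign turned without control replicate 1 (-0.14) and without STZ replicate 3 (-0.03).

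**Figure D3:**
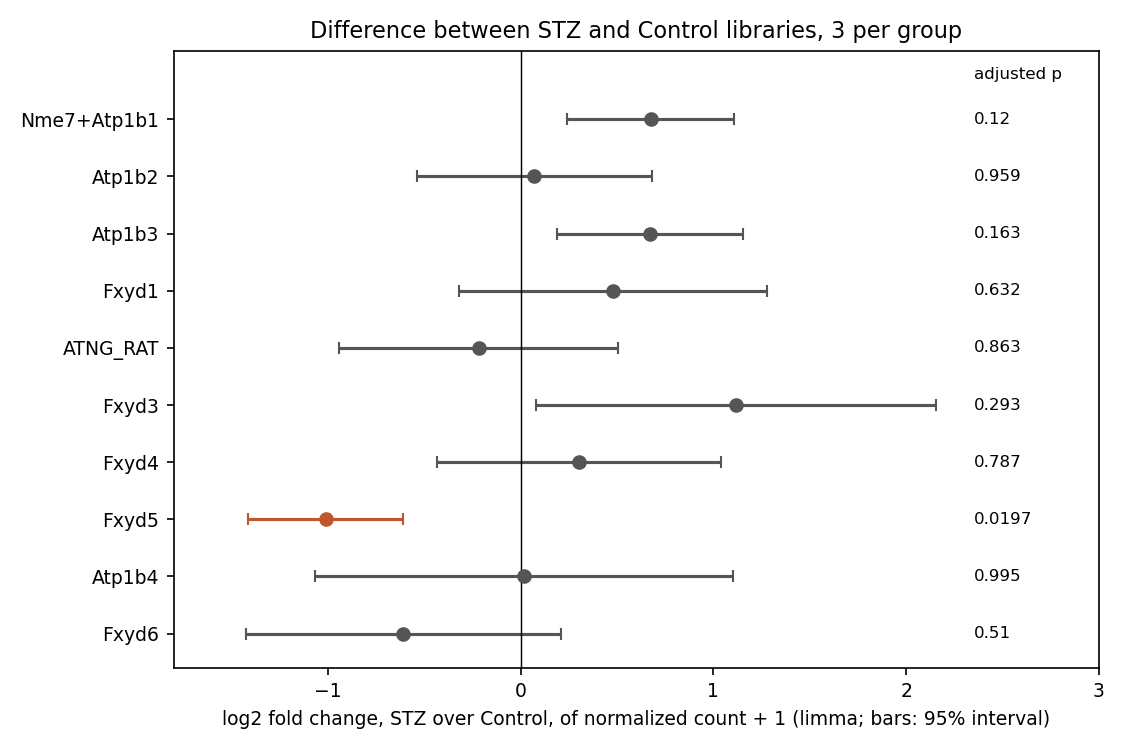
Log2 fold change of STZ over control of the normalized count + 1 (horizontal axis; points are limma estimates, bars 95% intervals, 3 libraries per group), with the adjusted p at right. Fxyd5 (orange) is the only one with an adjusted p under 0.05, and the intervals of Nme7+Atp1b1, Atp1b3 and Fxyd3 lie above 0 without passing the adjusted threshold.

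Atp1b4, a further beta family gene, was at 12.4 ± 5.32 (SD, n = 3) and 12.8 ± 6.54 (SD, n = 3), with overlap (log2 fold change 0.02, SE 0.49, adjusted p = 0.995).

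Ratios within a library do not depend on its size factor. The log2 ratio of Nme7+Atp1b1 to Atp1b3, each with 1 added, was 1.36, 0.97 and 0.71 in the control libraries and 1.15, 0.995 and 0.90 in the STZ libraries. The STZ values lay inside the control range. The difference of the means was 0.00 (exact permutation test, two-sided, p = 1.0), and its sign turned without control replicate 2 (-0.02), control replicate 3 (-0.15) or STZ replicate 1 (-0.06). The log2 ratio of Fxyd4 to ATNG_RAT was 1.26, 1.001 and 1.38 in the control libraries and 1.57, 1.25 and 2.39 in the STZ libraries. STZ replicate 3 stood above the other libraries, and the groups overlapped. The STZ mean was higher by 0.52 on the log2 scale (exact permutation test, two-sided, p = 0.3). It was higher by 0.19 without STZ replicate 3 and by 0.76 without STZ replicate 2.

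**Figure D4:**
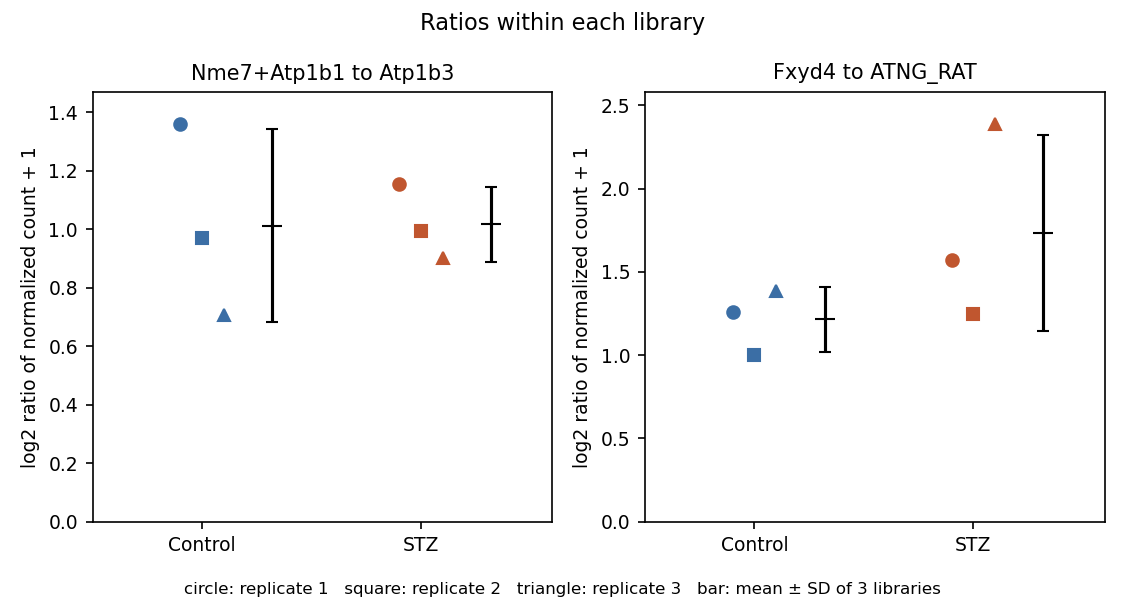
Log2 ratio of normalized count + 1 within each library for Nme7+Atp1b1 to Atp1b3 (left) and Fxyd4 to ATNG_RAT (right), with symbols for replicates 1 to 3 and bars for the mean ± SD of 3 libraries. The groups overlap in both panels, and the highest Fxyd4 to ATNG_RAT ratio, 2.39, is that of STZ replicate 3.

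Promoters are shown for Fxyd5, the gene that fell, for Fxyd4, the most abundant, and for Atp1b3, whose groups did not overlap in the other direction, so that their sequences can be compared. The sequences are those of RefSeq on GRCr8, a later assembly than the rn4 of the counts, and 5 of the 8 listed genes matched the promoter table. Each is the 250 bases before the annotated start, on the minus strand, 5′ to 3′. They lie at chr1:95404723-95404972 for the first annotated start of Fxyd5, at chr4:152786046-152786295 for Fxyd4 and at chr8:105821152-105821401 for Atp1b3. Capitals mark matches, on either strand, to the GC box GGGCGG, the CCAAT box CCAAT, the TATA box TATAAA, the steroid receptor core AGAACA and the NFAT5 core TGGAAA.
Fxyd5: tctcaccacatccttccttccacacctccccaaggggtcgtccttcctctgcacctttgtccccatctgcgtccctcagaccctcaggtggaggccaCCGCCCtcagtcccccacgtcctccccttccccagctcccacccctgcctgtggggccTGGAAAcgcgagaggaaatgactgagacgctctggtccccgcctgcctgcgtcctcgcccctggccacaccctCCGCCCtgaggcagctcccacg
Fxyd4: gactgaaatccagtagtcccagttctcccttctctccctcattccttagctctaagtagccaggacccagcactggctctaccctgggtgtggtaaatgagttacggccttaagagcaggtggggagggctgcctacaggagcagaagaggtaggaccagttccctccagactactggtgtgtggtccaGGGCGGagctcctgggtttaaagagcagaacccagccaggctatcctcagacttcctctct
Atp1b3: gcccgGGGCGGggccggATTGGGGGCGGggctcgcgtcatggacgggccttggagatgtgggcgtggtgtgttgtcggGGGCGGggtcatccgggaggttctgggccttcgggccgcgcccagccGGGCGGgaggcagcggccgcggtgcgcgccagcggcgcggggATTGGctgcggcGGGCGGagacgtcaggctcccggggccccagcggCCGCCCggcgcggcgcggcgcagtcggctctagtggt
The Atp1b3 promoter had 79.6% G and C and 38 CpG pairs, and 98.8% of 33469 promoters had less G and C. It held 6 GC box matches and 2 CCAAT box matches, and in the first stretch of capitals after the opening GC box a CCAAT box match directly adjoins a GC box match without overlap. The Fxyd4 promoter had 55.6% G and C and 2 CpG pairs, beside medians of 51.2% and 5 over all promoters, and held 1 GC box match. The Fxyd5 promoter at the first start had 67.2% G and C and 12 CpG pairs, and held 2 GC box matches and 1 match to the NFAT5 core, 95 bases before the start. The window before a second annotated start of Fxyd5 had 60.8% G and C, 10 CpG pairs and no match to any of the 5 motifs. Of all promoters, 30.5% held the GC box letters, 34.0% the CCAAT box letters, 12.9% the TATA box letters, 17.5% the steroid receptor core and 19.7% the NFAT5 core. No match means only that these letters are not in the window.

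Genes that act on the pump or load it with sodium were read from further lists. Among kinases, ligases and hormone receptors, 14 of 15 were found, 13 were tested, 1 rose and none fell, with a median log2 fold change of 0.19. Over all features tested, limma called 1.17% higher and 0.927% lower. At an unadjusted p under 0.05 in limma were 3 of the 13, beside 1988 of all 13486 features tested. The gene that rose was Sik1, a salt-inducible kinase that activates the pump when cell sodium rises. The control libraries held 238, 140.3 and 180.3 normalized counts of Sik1 and the STZ libraries 1106, 952 and 640.5. All STZ libraries were far above control, and the mean went from 186 ± 49.0 (SD, n = 3) to 899.6 ± 237 (SD, n = 3) (log2 fold change 2.26, SE 0.25, adjusted p = 0.00154). The call held without any single library, and was lost in limma without the trend (adjusted p = 0.0594). Sgk1, the aldosterone-induced kinase that keeps sodium channels and pumps at the membrane, overlapped between the groups (log2 fold change 0.20, SE 0.30, adjusted p = 0.859). So did Nfat5, the transcription factor of the hyperosmotic medulla (0.19, SE 0.25, adjusted p = 0.844). The receptors Nr3c1 and Nr3c2 and the enzyme Hsd11b2, which guards the mineralocorticoid receptor from glucocorticoids, were lower in every STZ library without passing, with adjusted p of 0.242, 0.372 and 0.228.

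Among sodium entry paths, 17 of 18 were found, 15 were tested, 2 rose and none fell, with a median log2 fold change of -0.12. Over all features tested, limma called 1.17% higher and 0.927% lower. At an unadjusted p under 0.05 in limma were 8 of the 15, beside 1988 of all 13486 features tested. STZ lay wholly above control for 5 of the 15 and wholly below for 3, beside 10.1% and 10.3% of all features tested. Slc13a2, a sodium-coupled carrier of citrate and other dicarboxylates, was at 35.9, 39.7 and 22.3 normalized counts in the control libraries and 196, 255 and 237 in the STZ libraries. The groups were far apart (log2 fold change 2.81, SE 0.25, adjusted p = 0.000341), and the call held without any single library. Slc12a2, the sodium, potassium and chloride cotransporter NKCC1, rose from 404 ± 65.6 (SD, n = 3) to 783 ± 109 (SD, n = 3), with no overlap (log2 fold change 0.95, SE 0.19, adjusted p = 0.0341). Its call was lost without control replicate 2 (adjusted p = 0.166), STZ replicate 1 (0.0632), STZ replicate 2 (0.113) or STZ replicate 3 (0.108), and in limma without the trend (0.172). The gamma subunit of the epithelial sodium channel, Scnn1g, was at 86.1 ± 22.5 (SD, n = 3) and 166 ± 46.3 (SD, n = 3), with no overlap and an adjusted p of 0.12 by limma, 0.109 by edgeR and 0.0417 by DESeq2. Slc5a3, the sodium-coupled carrier of the osmolyte myo-inositol and the most abundant gene of the list, was lower in every STZ library, at 4165 ± 807 (SD, n = 3) and 2651 ± 425 (SD, n = 3), with an adjusted p of 0.188 by limma and edgeR and of 0.0406 by DESeq2. Slc12a1, the cotransporter of the thick ascending limb, was lower in every STZ library, at 656 ± 30.6 (SD, n = 3) and 272 ± 174 (SD, n = 3), with an adjusted p of 0.0732. Without STZ replicate 1 its log2 fold change went from -1.47 to -1.95 and it passed (adjusted p = 0.00444), as it did in DESeq2 (0.00920), with quantile normalization (0.0374), at a minimum mean of 20 (0.0492) and with no filter (0.00938), but not in edgeR (0.128). Of the thick ascending limb markers, Umod and Egf fell, while the most abundant, Cldn10, was at 1560.3 ± 252 and 1873 ± 428 (SD, n = 3 each), and the sums of the list overlapped. The part of that segment's RNA in Slc12a1 was not tested.

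**Figure D5:**
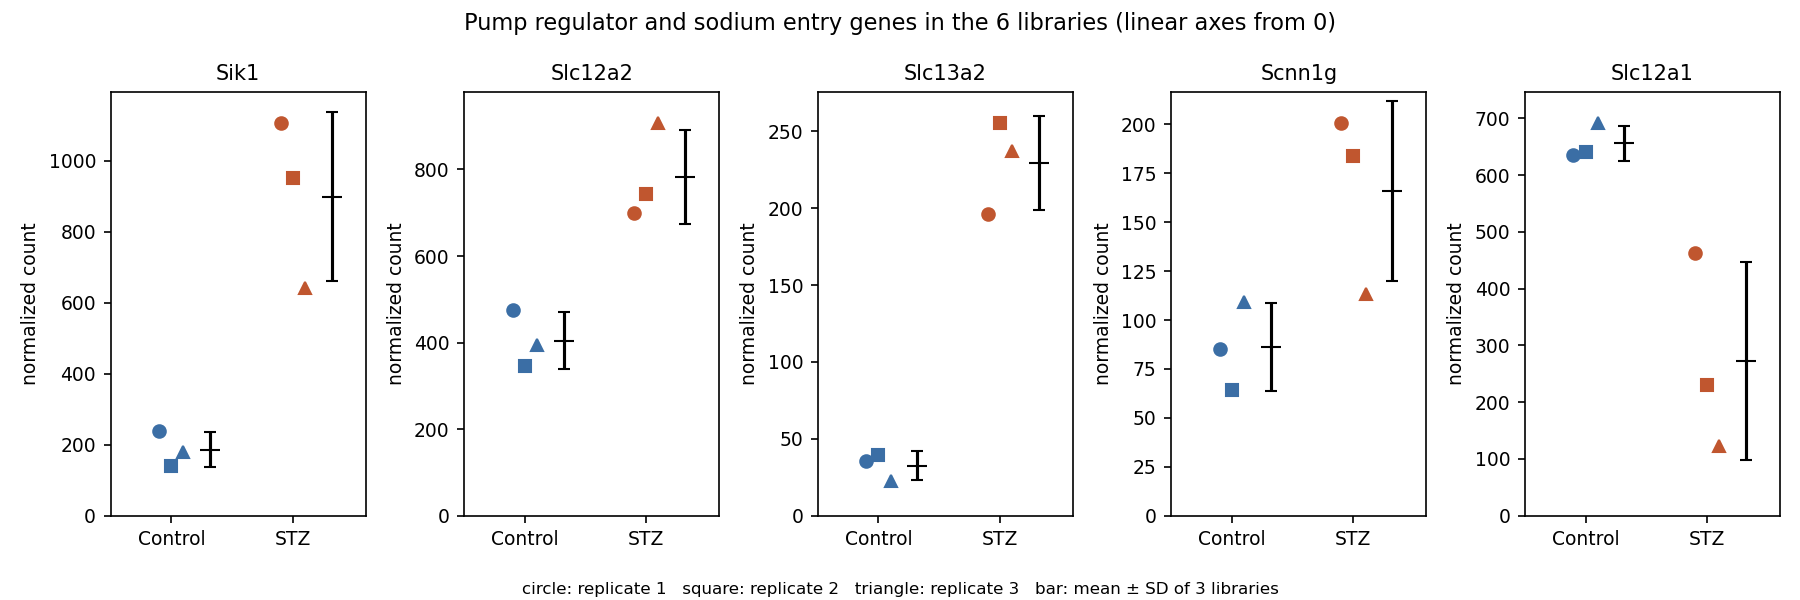
Normalized counts (linear axes from 0) of Sik1, Slc12a2, Slc13a2, Scnn1g and Slc12a1 in each control (blue) and STZ (orange) library, with symbols for replicates 1 to 3 and bars for the mean ± SD of 3 libraries. Sik1, Slc12a2 and Slc13a2 passed the adjusted threshold; Scnn1g (adjusted p 0.12) and Slc12a1 (0.0732) did not, although their groups do not overlap.

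Among other ion pumps of the same P-type class, 9 of 14 were found, 7 were tested and none passed in limma, edgeR or DESeq2, with a median log2 fold change of 0.15. Of these, 1 had an unadjusted p under 0.05 in limma, beside 1988 of all 13486 features tested. It was Atp2a2, the calcium pump of the endoplasmic reticulum, at 614 ± 98.1 (SD, n = 3) and 852 ± 137 (SD, n = 3), with STZ above control (log2 fold change 0.47, SE 0.20, adjusted p = 0.285). Among anchors and partners of the pump, 13 of 14 were found, 7 were tested and none passed in limma, with 2 at an unadjusted p under 0.05 and a median of 0.23. The adducin Add3, which links spectrin to the membrane, was lower in every STZ library, at 108 ± 12.7 (SD, n = 3) and 57.6 ± 3.99 (SD, n = 3) (log2 fold change -0.90, SE 0.21, adjusted p = 0.0520). It passed in edgeR (adjusted p = 0.0495) and DESeq2 (0.0269), and in limma without control replicate 3 (0.0487), with equal library totals (0.0405), quantile normalization (0.0289), robust moderation (0.0481) or a minimum mean of 20 (0.0313). The most abundant gene of that list, the spectrin gene Sptan1, overlapped between the groups (log2 fold change 0.28, adjusted p = 0.582). These lists and the subunit genes together held 51 genes tested. Of them, 4 passed in limma, 3 higher and Fxyd5 lower, and 8 passed in DESeq2, 4 in each direction. Over all features tested, limma called 2.1% and DESeq2 4.43%.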

How the data were processed

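RNA-seq of 3 control and 3 STZ rat IM tips was analysed. Per the paper's methods, the authors amplified cDNA by PCR (SMARTer kit), sequenced it on a HiSeq2000, aligned reads to rn4 with STAR 2.3.1t, counted uniquely mapped reads per Ensembl gene and divided each library's counts by its DESeq size factor (version 1.16.0 in the submitters' processing notes). How the reads were counted, and whether by strand, is not given in the sources used here, so reads of overlapping or antisense genes may be shared. The deposited signal is therefore a normalized count. In each library 100.0% of them are whole multiples of 1 step (tolerance 1e-06 of a read), which gave the reads. Reads without molecular identifiers are not independent molecules. No per-library column was left unused.

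Log2(normalized count + 1) of 13486 features (mean over the libraries 5 or more) was fitted with limma 3.58.1 (R 4.3.3, intensity trend), with Benjamini-Hochberg adjustment over all features and a threshold of 0.05. Alternatives were a pseudocount of 0.5 or 5, a minimum mean of 1 or 20 or none, quantile normalization, equal library totals, limma without trend or with robust moderation, edgeR 4.0.16 (quasi-likelihood) and DESeq2 1.42.0 on the recovered reads, a replicate block and each library left out. The methods were tested on simulated data. The genes and lists were chosen with earlier results of these data known. Named were the listed genes, every other beta and FXYD gene found, pathway and marker genes that passed or had the highest level of a list, and the 3 features most like each gene. Some genes of the family and of the lists are not reported here. Other names were chosen after their values were seen.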

Additional observations from a re-analysis of the deposited data

How the results depend on the processing

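Limits come from 3 libraries per group and, for Fxyd1 and Fxyd3, from few reads: at a minimum mean of 20 they could not be fitted, and DESeq2 gave them no adjusted p. Limma called 283 features, and the count moved to 522 with quantile normalization, to 31 without the trend and to 597 in DESeq2, and ranged from 88 (without STZ replicate 2) to 352 (without control replicate 3) with a library left out. Of the 6 genes, 1 was called, 0 without the trend (Fxyd5 at -1.01, adjusted p = 0.147) and from 0 to 2 with a library left out. Fxyd5 then ranged from -1.11 to -0.96, Atp1b3 from 0.55 to 0.90, Nme7+Atp1b1 from 0.54 to 0.76, Atp1b2 from -0.14 to 0.27 (reversed at -0.14 and -0.03), ATNG_RAT from -0.50 to 0.03 (reversed at 0.0278), and the log2 ratio of Nme7+Atp1b1 to Atp1b3 from -0.15 to 0.18 (reversed at -0.02, -0.15 and -0.06). Nme7+Atp1b1 passed with quantile normalization (0.70) and DESeq2 (0.66). The pathway lists held 4 calls among 51 genes tested, and 8 in DESeq2, which also called more of all features. The cause was not tested. No direction of Fxyd1, Fxyd3, Fxyd4, Fxyd5, Atp1b3 or Nme7+Atp1b1 turned under any alternative run.

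The labels give both groups replicate numbers 1 to 3. Deviations from the group means over 9315 features correlated between same-numbered libraries at 0.39, -0.06 and 0.32. Between control and STZ libraries of different numbers r ran from -0.47 to 0.22, so the values 0.39 and 0.32 were the highest. Control replicate 2, however, correlated better with STZ replicate 1 (0.11) than with its own number, and the numbers were not taken as pairs. With the replicate block limma called 561 features, 299 higher and 262 lower. Fxyd5 passed (adjusted p = 0.0136), Atp1b3 and Nme7+Atp1b1 did not (0.0816 and 0.0654), and the block changed no call among the 6 genes. Of the pathway genes, Add3 (0.0398) and Slc12a1 (0.0312) passed with the block.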

Other observations

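For each gene, the single-gene features whose mean was 50 normalized counts or more were ranked by Pearson r with it over the 6 libraries. The points share the 2 groups and each library's depth, so r is a description, and nothing is said of shared function. Fxyd5 was most like Zfp828 (r = 0.9996), Nsf (0.995), which acts in vesicle fusion, and Clca4 (0.991), and 76 of 6515 features had an r over 0.95. Atp1b3 was most like the small GTPase gene Rac1 (0.982), the kinase gene Map2k6 (0.982) and the cadherin gene Fat1 (0.979), with 38 features over 0.95. Nme7+Atp1b1 was most like the S6 kinase gene Rps6kb1, Parg and Vasp (all 0.985), with 82 of 6516. Fxyd4 was most like LOC100362034 (0.981), the glucose transporter gene Slc2a1 (0.973) and the cysteine dioxygenase gene Cdo1 (0.970), with 15. Fxyd3 was most like F1LYM0_RAT (0.995), Atg3 (0.991) and Pam (0.991), with 31. Fxyd1 was most like Ppfia1 (0.989), TM9S1_RAT (0.962) and Spg21 (0.962), with 8. Atp1b2 was most like Usp6nl (0.981), Hspa4 (0.962) and Fbn1 (0.957), with 4. ATNG_RAT was most like Rbmxrtl (0.994), Lysmd3 (0.993) and the spermine synthase gene Sms (0.993), with 53. Among the genes themselves, Fxyd5 ran against Nme7+Atp1b1 (r = -0.95) and Atp1b3 (-0.89), while Nme7+Atp1b1 ran with Fxyd3 (0.90) and Atp1b3 (0.87).

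Genes within 100 kb on rn4 were also read. Hnrnpf, an RNA-binding protein gene 5313 bases from Fxyd4, was lower in every STZ library, at 2128 ± 379 (SD, n = 3) and 1491 ± 134 (SD, n = 3) normalized counts (log2 fold change -0.50, adjusted p = 0.256 by limma). Tfdp2, 13363 bases from Atp1b3, was higher in every STZ library, at 34.7 ± 3.797 (SD, n = 3) and 59.3 ± 5.97 (SD, n = 3) (log2 fold change 0.76, adjusted p = 0.139). The neighbour that passed was D4AAY8_RAT, 76056 bases from Atp1b2, which rose from 411 ± 85.1 (SD, n = 3) to 968 ± 223 (SD, n = 3) (log2 fold change 1.23, SE 0.23, adjusted p = 0.0244) while Atp1b2 was at 44.3 and 45.7. Features between genes beside Fxyd4, Fxyd5 and ATNG_RAT held at most 6 reads in any library.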
